A study of Homo sapiens with 6 samples.

Results

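The genes described here write, copy and remove cytosine methylation: the methyltransferase family DNMT1, DNMT3A, DNMT3B and DNMT3L, the DNMT1 partner UHRF1, the dioxygenases TET1, TET2 and TET3, and the glycosylase TDG. They were taken by their symbols from a table of 27672 genes, and all 9 were found and passed the low-count filter. RNA from human H9 embryonic stem cells (hESC) at day 0 was compared with RNA from neuromesodermal progenitor-like cells (NMP-L) derived from them by day 3, with 3 libraries in each condition. According to the sample labels, hESC grew without feeder cells on fibronectin in DEF medium, to which bFGF was added at 30 ng/ml and Noggin at 10 ng/ml. NMP-L cells spent 3 days in N2/B27 medium with CHIR99021 at 3 µM, a GSK3 inhibitor that activates Wnt signalling, and with bFGF at 20 ng/ml. No gene was deleted or added in either condition, and both came from a single cell line. Medium, growth factors and time in culture changed together, so their effects cannot be told apart. The labels call the libraries of a condition biological replicates but do not say whether they came from separate passages or differentiations.

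In mammals DNA methylation is placed mainly on cytosines of CpG dinucleotides. DNMT3A and DNMT3B methylate unmodified DNA, and DNMT3L, which lacks catalytic activity, stimulates them. After replication UHRF1 recognises hemimethylated CpG and brings DNMT1 to copy the mark to the daughter strand, whereas TET enzymes oxidise 5-methylcytosine to forms that TDG can excise for repair. Human pluripotent stem cells are known for abundant DNMT3B and TET1. RNA levels were measured here, and neither protein nor DNA methylation was.

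The 6 libraries held between 19454543 and 23036426 expected counts. Expected counts are reads assigned to a gene by a model that shares out ambiguous reads, and no count of the 9 genes was fractional. The identities of the cells were checked on marker genes. All 8 hESC markers fell in NMP-L (TDGF1 was at 0.04 on the log2 scale relative to GAPDH counts), with a summed level of 4688.71 to 5051.06 TPM, the share of all transcripts after division by transcript length, in hESC and 2525.49 to 2724.58 TPM in NMP-L. Of 8 NMP markers, T, CDX1, CDX2, SP5, NKX1-2 and WNT3A rose, TBX6 fell and FGF8 did not pass the filter, and their summed level went from 11.73 to 15.96 TPM to 126.02 to 171.3 TPM. T, CDX1, CDX2, SP5 and WNT3A could pass the low-count filter only through their NMP-L libraries and had to differ. Their calls therefore add nothing to their levels. Of all tested genes 29.1% rose and 26.7% fell. Of 14 markers of other cell types, 9 did not pass the filter, 4 of them at or under 3 counts in all libraries. FOXA2 and KRT7 rose, and TUBB3, TCF15 and PDGFRA fell. FOXA2, listed as an endoderm marker, went from 0, 5 and 2 counts in hESC to 473, 264 and 535 in NMP-L. It too could pass the filter only through its NMP-L libraries and had to differ. Its mean in NMP-L was 17.2 TPM, beside 19.6 TPM for T. The sum over the list was 271.9 to 307.9 TPM in hESC and 192.12 to 215.97 TPM in NMP-L. Most of that sum was TUBB3, with means of 273 and 164 TPM, so it does not show the rise of FOXA2. The part of these shifts in the results below was not tested. In bulk RNA, fewer cells of a type and less RNA per cell cannot be told apart.

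Of the 9 genes, 8 differed between the conditions by edgeR's quasi-likelihood test at a Benjamini-Hochberg adjusted p under 0.05, against a background of 55.8% of the 15517 genes tested. DNMT3L is among the 8, but it passed the low-count filter through its hESC libraries alone and had to differ. TET2 and TET3 rose, where 29.1% of all tested genes rose. DNMT1, DNMT3A, DNMT3B, DNMT3L, UHRF1 and TET1 fell, where 26.7% of all tested genes fell, and of these DNMT1 and UHRF1 changed sign relative to GAPDH counts. The median log2 fold change was -0.35 over the 9 genes and 0.03 over all tested genes. CPM, the counts divided by the library total and the TMM factor of each library, did not overlap between the conditions for the same 8 genes, against 61.6% of all tested genes, and overlapped for TDG. Without the TMM factors 7 of the 9 genes were separated, against 62.7% of all tested genes, and DNMT1 and TDG overlapped. These counts depend on the scaling between libraries. GAPDH, the reference gene of the study's RT-qPCR, itself fell by 0.55 on the log2 scale (SE 0.08, edgeR adjusted p = 0.000144), while HPRT1 had a log2 fold change of 0.28 (SE 0.12, edgeR adjusted p = 0.0689). Relative to GAPDH counts, 3 of the 9 genes rose and 2 fell, where 10027 of all tested genes rose and 1428 fell. The median of all tested genes then moved to 0.59. Relative to HPRT1 counts, 1 of the 9 rose and 7 fell, where 1793 of all tested genes rose and 5294 fell, and that median moved to -0.27.

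**Figure D1:**
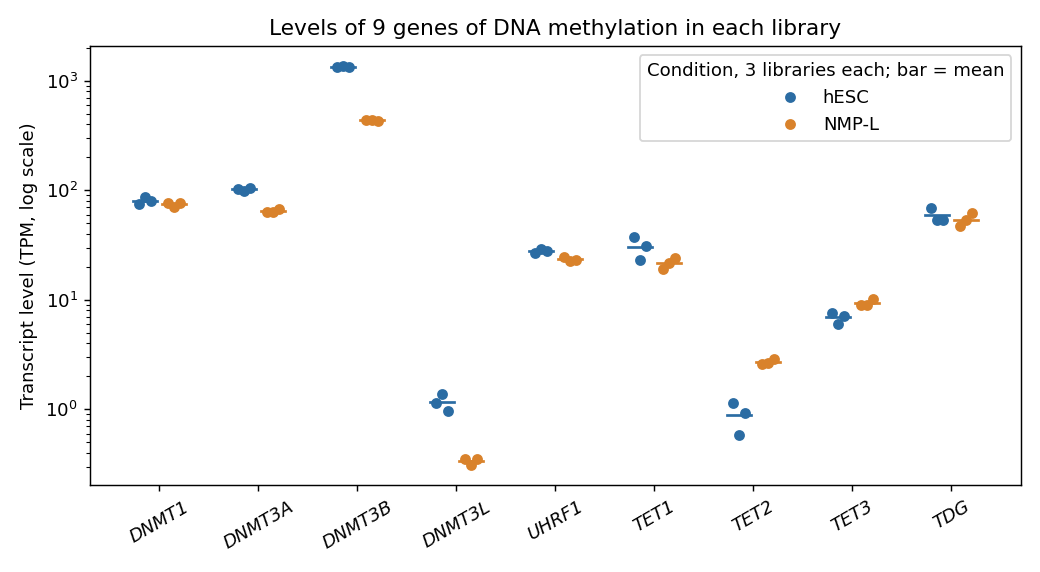
Level of each of the 9 genes in TPM (log scale) in each library, with 3 points and a bar for the mean per condition (hESC at day 0, NMP-L at day 3). DNMT3B lies highest in both conditions, DNMT3A, DNMT3B, DNMT3L and UHRF1 have all NMP-L points below all hESC points, and TET2 and TET3 have them above.

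The genes lie on 8 chromosomes, since DNMT1 and UHRF1 share chromosome 19 and DNMT3A and TET3 share chromosome 2. On GRCh37, with GENCODE gene models, DNMT3B is at chr20:31350191-31397165 on the plus strand, DNMT3A at chr2:25450724-25565459 on the minus strand and DNMT3L at chr21:45666222-45682099 on the minus strand. DNMT1 is at chr19:10244018-10341962 on the minus strand and UHRF1 at chr19:4903092-4962165 on the plus strand. TET1 is at chr10:70320094-70454244, TET2 at chr4:106067032-106200973, TET3 at chr2:74212037-74335303 and TDG at chr12:104359600-104382652, all on the plus strand. All 9 are annotated as protein coding.

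The RefSeq promoter windows of a gene that fell steeply and of a gene that rose are shown to compare their content of CpG, the substrate of these enzymes. Each line holds the 250 bases before the gene start in RefSeq (GRCh38.p14 sequence), 5′ to 3′ on the strand of the gene, with CpG in capitals. The DNMT3B window matched GRCh37 once, at chr20:31367408-31367657, and the TET3 window once, at chr2:74229569-74229818, both on the plus strand. Both windows lie inside the longer annotated gene and overlap no annotated exon.
DNMT3B: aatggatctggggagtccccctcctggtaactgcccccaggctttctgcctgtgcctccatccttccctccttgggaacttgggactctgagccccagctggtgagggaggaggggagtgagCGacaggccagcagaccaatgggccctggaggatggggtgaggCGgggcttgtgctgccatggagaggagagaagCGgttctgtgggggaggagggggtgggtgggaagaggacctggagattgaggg
TET3: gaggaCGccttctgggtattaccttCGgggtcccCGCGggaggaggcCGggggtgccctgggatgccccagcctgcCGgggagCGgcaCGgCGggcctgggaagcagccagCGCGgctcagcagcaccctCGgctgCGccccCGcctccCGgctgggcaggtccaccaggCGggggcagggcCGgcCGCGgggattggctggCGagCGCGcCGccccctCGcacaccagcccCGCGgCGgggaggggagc

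The DNMT3B window holds 3 CpG, and 22.9% of the 35116 promoters of the same length hold fewer. The TET3 window holds 27, with 82.3% of promoters below it, and the median promoter holds 11. Over the 8 genes with a promoter in the RefSeq table the count ran from 3 in DNMT3B to 41 in UHRF1, through 11 in TET1, 21 in DNMT1, 22 each in DNMT3A and TDG, 27 in TET3 and 34 in TET2. Genes that fell and genes that rose therefore both included windows rich in CpG. The E2F motif (TTTGGCGC or TTTCGCGC, both strands), found in 0.968% of all promoters, and the TCF/LEF motif (CTTTGAT or CTTTGAA, both strands), found in 5.94%, do not overlap each other and were in none of the 8 windows. All windows except that of TDG lie inside the longer annotated gene, and those of DNMT1, DNMT3A, UHRF1, TET2 and TDG overlap annotated exons. DNMT3B, TET1 and TET3 start at 31350191, 70320094 and 74212037 in GENCODE, upstream of their windows at 31367408, 70359981 and 74229569. On the minus strand, DNMT3A and DNMT1 start at 25565459 and 10341962, upstream of their windows at 25475133-25475382 and 10305630-10305879. UHRF1 and TET2 also start upstream of their windows in GENCODE. RefSeq gives 1 start per gene here, and which start these cells used was not measured. The CpG counts are thus those of the windows and may not be those of the promoters in use.

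DNMT3B was the most abundant of the 9 genes in both conditions and fell more than 3-fold. Its level was 1324, 1366 and 1329 TPM in the hESC libraries and 439.04, 441.59 and 432.91 TPM in the NMP-L libraries. All NMP-L libraries lay far below all hESC libraries, and the spread within each condition was small, with means of 1340 ± 23.0 and 437.9 ± 4.46 TPM (SD, n = 3 each). The log2 fold change was -1.71 (SE 0.07, 95% interval -1.86 to -1.56, edgeR adjusted p = 5.08e-09), a 3.27-fold fall. DNMT3B ranked 114 among the 27672 genes by mean TPM in hESC and 290 in NMP-L, so it remained an abundant transcript, and 607 of the tested genes fell by more on the log2 scale.

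DNMT3A, the other de novo methyltransferase, fell less. It stood at 103.09, 99.51 and 105.33 TPM in hESC and at 63.00, 63.53 and 67.48 TPM in NMP-L, again without overlap. The log2 fold change was -0.77 (SE 0.07, 95% interval -0.93 to -0.61, edgeR adjusted p = 3.77e-06), a 1.70-fold fall. Relative to GAPDH counts it was -0.21 and not called (edgeR adjusted p = 0.0908). The intervals of DNMT3A and DNMT3B did not overlap, and the ratio of DNMT3B to DNMT3A in TPM went from 13.06 ± 0.587 to 6.778 ± 0.314 (SD, n = 3 each; exact permutation test, two-sided p = 0.1, the smallest that 3 libraries against 3 can give). DNMT3B thus made up 92.78, 93.21 and 92.66% of the summed TPM of both genes in hESC and 87.45, 87.42 and 86.51% in NMP-L, a difference of -5.75 percentage points (exact permutation p = 0.1).

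DNMT3L, the cofactor of both, was barely present. It had 17, 22 and 15 counts in hESC and 6, 5 and 6 in NMP-L, or 0.97 to 1.37 TPM against 0.31 to 0.35 TPM. All libraries were above the floor of 3 counts, and the conditions did not overlap. The log2 fold change was -1.87 (SE 0.35, 95% interval -2.64 to -1.10, edgeR adjusted p = 0.000791), with an interval that includes the value of DNMT3B. On the log2(TPM + 1) scale, which understates changes of low genes, it was -0.69. The gene passed the low-count filter through its hESC libraries alone, so that it had to differ, and its call supports nothing further.

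DNMT1 and UHRF1, which copy methylation after replication, changed little beside the de novo enzymes. DNMT1 was at 75.17, 86.00 and 79.55 TPM in hESC and 76.07, 69.79 and 76.79 TPM in NMP-L. On this scale the conditions overlapped, as they did for counts over the library total. Only after division by the TMM factors was every NMP-L library below every hESC library. The log2 fold change was -0.21 (SE 0.08, 95% interval -0.40 to -0.03, edgeR adjusted p = 0.0466), close to the threshold. This call was lost in 12 of 19 alternative settings, and relative to GAPDH counts the value was 0.35 (edgeR adjusted p = 0.0149). Leaving out hESC replicate 2 or 3 or any NMP-L library ended the call (edgeR adjusted p = 0.0611 to 0.16), and over all alternatives the adjusted p ran from 0.00982 to 0.228.

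UHRF1 stood at 27.01, 29.03 and 28.07 TPM in hESC and 24.51, 22.79 and 23.10 TPM in NMP-L, without overlap. Its log2 fold change was -0.35 (SE 0.09, 95% interval -0.55 to -0.15, edgeR adjusted p = 0.00632), and the value was 0.20 relative to GAPDH counts (edgeR adjusted p = 0.0862) and -0.65 relative to HPRT1 counts. The ratio of DNMT1 to UHRF1 was 2.86 ± 0.0925 in hESC and 3.163 ± 0.141 in NMP-L (SD, n = 3 each; exact permutation p = 0.1), without overlap and in favour of DNMT1 in NMP-L.

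DNMT3B fell by more than DNMT1, and the makeup of the methyltransferase transcripts shifted. The summed TPM of DNMT1, DNMT3A and DNMT3B was 1502, 1552 and 1514 in hESC and 578.11, 574.91 and 577.18 in NMP-L, a ratio of 0.379 (exact permutation p = 0.1). DNMT1 contributed 5.00, 5.54 and 5.25% of that sum in hESC and 13.16, 12.14 and 13.30% in NMP-L, a difference of 7.60 percentage points (exact permutation p = 0.1). In TPM, DNMT3A was above DNMT1 in every hESC library, and DNMT1 was above DNMT3A in every NMP-L library. This change of order rests on the division by length. In counts DNMT1 was above DNMT3A in every hESC library too (3690, 4555 and 4049 against 3323, 3515 and 3541). Ratios within a library do not depend on the scaling between libraries, and DNMT3B to DNMT1 went from 16.74 ± 0.863 to 5.912 ± 0.366 (SD, n = 3 each; exact permutation p = 0.1).

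**Figure D2:**
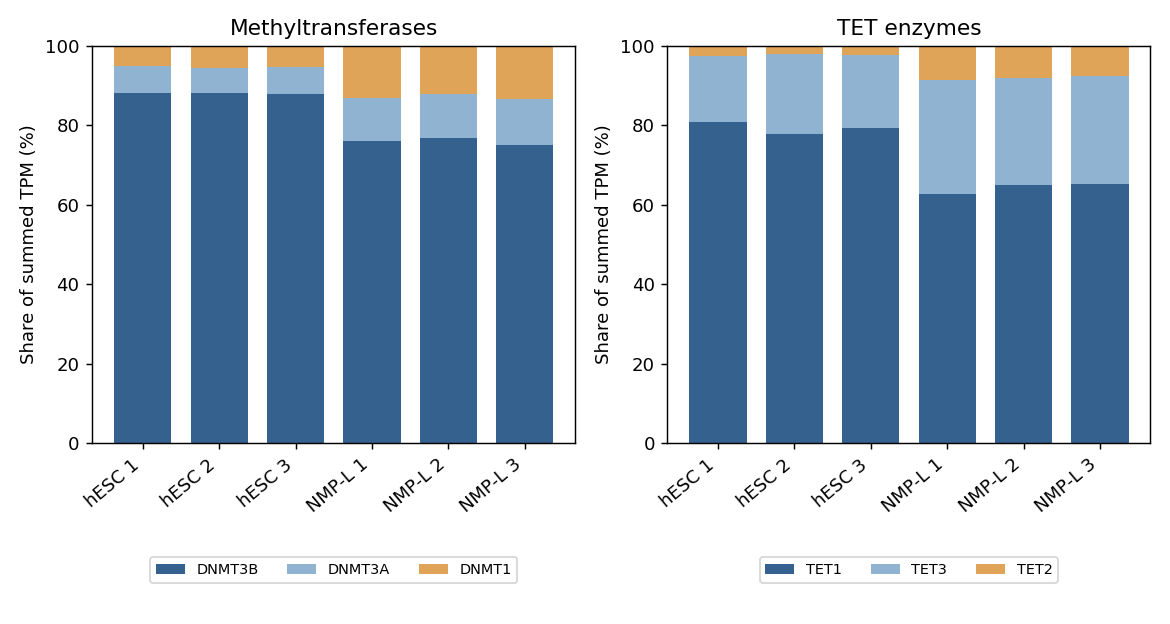
Share of the summed TPM (%) of DNMT3B, DNMT3A and DNMT1 (left) and of TET1, TET3 and TET2 (right) in each of the 6 libraries; each bar adds up to the whole sum of its family. The DNMT1 share is larger in every NMP-L library than in any hESC library, and the TET1 share is smaller.

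Among the TET enzymes, TET1 fell while TET2 and TET3 rose. TET1 was at 37.39, 23.07 and 30.76 TPM in hESC and 19.26, 21.56 and 24.34 TPM in NMP-L, and hESC replicate 2 lay within the NMP-L range. In CPM with TMM factors the groups did not overlap, the nearest libraries being at 112.4 in hESC and 104.2 in NMP-L. The log2 fold change was -0.58 (SE 0.14, 95% interval -0.88 to -0.28, edgeR adjusted p = 0.0038). Relative to GAPDH counts it was -0.02 (edgeR adjusted p = 0.935). The mean level was 30.4 ± 7.17 TPM in hESC and 21.7 ± 2.54 TPM in NMP-L (SD, n = 3 each).

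TET2, which lacks the CXXC domain of TET1 and TET3, was rare in hESC and rose nearly 3-fold. It had 102, 56 and 86 counts in hESC and 270, 260 and 300 in NMP-L, or 1.14, 0.59 and 0.93 TPM against 2.61, 2.67 and 2.87 TPM. Every NMP-L library was above every hESC library by a wide margin. The log2 fold change was 1.53 (SE 0.18, 95% interval 1.13 to 1.94, edgeR adjusted p = 2.89e-05), a 2.89-fold rise that 744 of the tested genes exceeded. On the log2(TPM + 1) scale it was 0.99. TET2 remained the rarest TET transcript, ranking 12478 by mean TPM in NMP-L after 14428 in hESC.

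TET3 rose by less, from 7.65, 6.03 and 7.11 TPM to 8.90, 8.95 and 10.17 TPM, without overlap. Its log2 fold change was 0.33 (SE 0.10, 95% interval 0.12 to 0.55, edgeR adjusted p = 0.0125). The call did not hold relative to HPRT1 counts (0.04, edgeR adjusted p = 0.895) or without hESC replicate 2 (0.25, edgeR adjusted p = 0.0507), the library in which TET1, TET2 and TET3 were all lowest among hESC. The intervals of TET2 and TET3 did not overlap.

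The sum of the TET transcripts changed little while its makeup did. It was 46.18, 29.69 and 38.80 TPM in hESC and 30.77, 33.18 and 37.38 TPM in NMP-L, with overlapping conditions (exact permutation p = 0.5). TET1 made up 80.97, 77.70 and 79.28% of it in hESC and 62.59, 64.98 and 65.12% in NMP-L, a difference of -15.1 percentage points (exact permutation p = 0.1). The share of TET3 went from 18.4 ± 1.87 to 27.7 ± 1.07% and that of TET2 from 2.284 ± 0.26 to 8.069 ± 0.403% (SD, n = 3 each), so TET1 stayed the main TET transcript. The ratio of TET1 to TET2 went from 34.99 ± 3.56 to 7.978 ± 0.557 and that of TET1 to TET3 from 4.347 ± 0.531 to 2.322 ± 0.137 (SD, n = 3 each; exact permutation p = 0.1 for each). Across families, the summed methyltransferases fell to 0.379 of their hESC level and the summed TET transcripts to 0.884, the latter within the spread of the libraries.

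TDG, the glycosylase that removes the oxidised bases, was at 68.52, 54.06 and 54.12 TPM in hESC and 46.84, 53.17 and 61.73 TPM in NMP-L. The conditions overlapped, and the test was not passed (log2 fold change -0.23, SE 0.11, 95% interval -0.47 to 0.01, edgeR adjusted p = 0.101). The interval leaves room for a fall of up to 0.47. The call was made under 3 alternatives, upper-quartile normalization (adjusted p = 0.0488), HPRT1 counts (0.0142) and a correction for GC content and length (5.58e-05), and relative to GAPDH counts the value was 0.34.

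**Figure D3:**
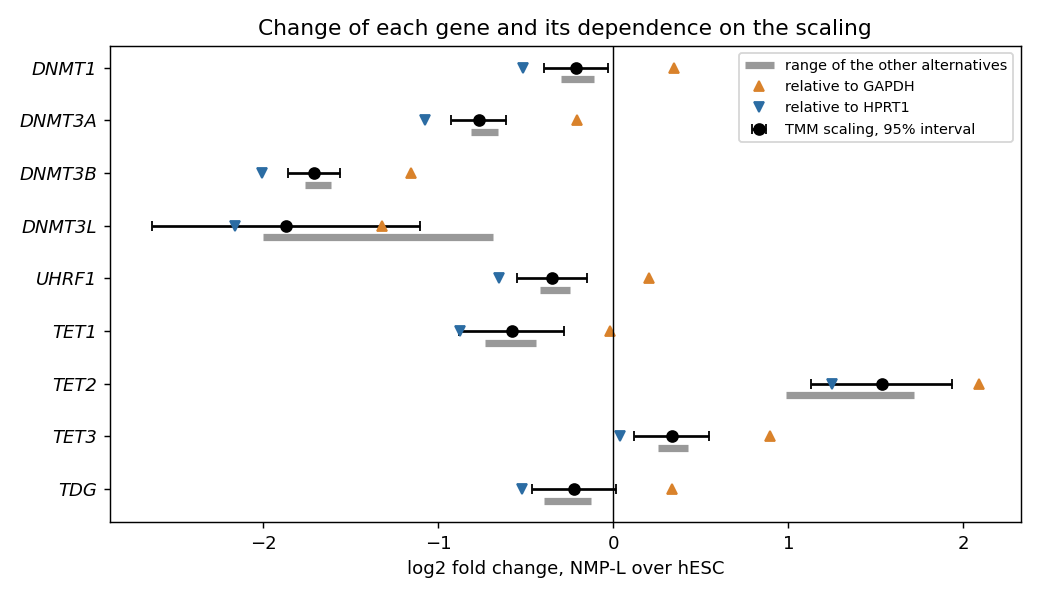
Log2 fold change of each gene, NMP-L over hESC, with its 95% interval (black), the value relative to GAPDH (triangle up) and HPRT1 counts (triangle down), and the range of the other alternatives (grey bar). DNMT3A, DNMT3B and DNMT3L lie left of 0 and TET2 right of 0 under each of them, whereas DNMT1, UHRF1 and TDG lie on the other side of 0 relative to GAPDH.

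By mean TPM the order in hESC was DNMT3B, DNMT3A, DNMT1, TDG, TET1, UHRF1, TET3, DNMT3L and TET2. The neighbours TET1 and UHRF1 overlapped between their libraries, as did DNMT3L and TET2. In NMP-L the order was DNMT3B, DNMT1, DNMT3A, TDG, UHRF1, TET1, TET3, TET2 and DNMT3L, with overlap between UHRF1 and TET1. TPM divides by transcript length, so it also moves if the isoforms used change. The length implied by counts over TPM, set against the library median, differed between the lowest and highest library by 2.13% for DNMT3A, 1.87% for TET2, 1.79% for DNMT3L, 0.972% for UHRF1 and at most 0.454% for the others, against a median of 0.403% over the 6060 genes that reached 500 counts in each of the libraries. These differences in length were small beside the changes in level of DNMT3A, DNMT3B, DNMT3L and TET2.

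The wider machinery was described by lists around these enzymes, 87 genes in all, of which 77 were tested, 17 rose and 30 fell, with a median of -0.12. These 47 are 61.0% of those tested, near the 55.8% of all tested genes. Relative to GAPDH counts 43 rose and 7 fell, where 10027 of all tested genes rose and 1428 fell. Relative to HPRT1 counts 5 rose and 38 fell, where 1793 of all tested genes rose and 5294 fell. Among 8 partners of maintenance methylation 1 rose, 2 fell and 5 did not pass the test. The 3 called are 37.5% of this list, against 55.8% of all tested genes. UHRF2, the paralogue of UHRF1, rose from a mean of 12.2 to 23.7 TPM (log2 fold change 0.86, edgeR adjusted p = 2.76e-05). HELLS, a chromatin remodeller needed for normal methylation, fell from 72.4 ± 17.3 to 37.5 ± 6.87 TPM (SD, n = 3 each; -1.03, edgeR adjusted p = 0.00019), and CDCA7L fell by 0.65 (edgeR adjusted p = 1.83e-05). PCNA, the replication clamp that also binds DNMT1, had a log2 fold change of -0.07 (edgeR adjusted p = 0.476).

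Of 10 repressor partners 2 rose and 6 fell, with a median of -0.64. The 8 called are 80% of this list, against 55.8% of all tested genes. Among the 6, ZFP57 and DPPA3 passed the low-count filter through their hESC libraries alone and had to differ. TRIM28, the corepressor that KRAB zinc finger proteins bring to methylated imprinted and repeat DNA, fell from 733 ± 51.2 to 496 ± 26.0 TPM (SD, n = 3 each; log2 fold change -0.66, edgeR adjusted p = 6.08e-05). ZFP57, a KRAB zinc finger protein of imprinted regions, had 17, 21 and 24 counts in hESC and 1, 0 and 0 in NMP-L, and DPPA3, a factor that restrains UHRF1, had 37, 35 and 32 against 1, 1 and 0. Set against a floor of 3 counts per library, they were at least 7.55-fold and at least 12.7-fold lower in NMP-L. MORC2 fell by 1.02 (edgeR adjusted p = 1.88e-06). CBX5 rose by 0.45 (edgeR adjusted p = 0.00372) and the histone methyltransferase SETDB1 by 0.28 (edgeR adjusted p = 0.018), the latter a direction that was -0.03 relative to HPRT1 counts.

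Of 7 proteins that read methylated CpG, 3 rose and 4 did not pass the test (median 0.13). Called genes made up 42.9% of this list, against 55.8% of all tested genes. Those that rose included ZBTB38 (log2 fold change 1.15, edgeR adjusted p = 4.13e-06) and ZBTB33 (0.59, adjusted p = 0.0266). Of 8 CXXC proteins, which bind unmethylated CpG, 2 rose and 5 fell (median -0.33), and 4 of the 5 changed sign relative to GAPDH counts. Called genes made up 87.5% of this list, against 55.8% of all tested genes. CXXC4, an inhibitor of Wnt signalling encoded next to TET2, had 28, 19 and 18 counts in hESC and 150, 143 and 231 in NMP-L (log2 fold change 2.77, edgeR adjusted p = 1.72e-06), and CXXC5 rose by 1.08 (adjusted p = 6.22e-07). KDM2B, KMT2B and KDM2A, which bring histone demethylase and methyltransferase activity to CpG islands, fell by 0.75, 0.55 and 0.49, of which KMT2B and KDM2A were at 0.01 and 0.07 relative to GAPDH counts.

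Base excision repair, which completes the removal that TDG begins, had 2 of 14 genes higher and 4 lower (median -0.06), and 1 of the 4 changed sign relative to GAPDH counts. Called genes made up 42.9% of this list, against 55.8% of all tested genes. GADD45A, a stress-induced factor tied to demethylation, rose by 1.21 (edgeR adjusted p = 6.46e-06), while its relative GADD45B fell by 1.64 (edgeR adjusted p = 4.12e-06). UNG fell by 0.70 and PARP1 by 0.60, though relative to GAPDH counts they were at -0.14 and -0.04. The glycosylase SMUG1 rose by 0.45. Of 15 genes of methyl donor and cofactor metabolism, 13 were tested, 5 rose and 1 fell (median -0.02). Called genes made up 46.2% of those tested, against 55.8% of all tested genes. SHMT1 rose by 0.57 and MAT2A, which makes S-adenosylmethionine, by 0.46 (edgeR adjusted p = 0.00315), whereas MTHFD1 fell by 0.78 (edgeR adjusted p = 3.4e-06).

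Genes of S phase were listed because DNMT1 and UHRF1 are known to follow it. Of 12, 1 rose and 8 fell, with a median of -0.35, and 5 of the 8 (MCM2, MCM3, MCM7, CDC6 and CCNE1) changed sign relative to GAPDH counts. The 9 called are 75% of the list, against 55.8% of all tested genes. E2F1 fell by 0.67, MCM5 by 0.59 and MCM6 by 0.56, of which MCM5 was at -0.04 relative to GAPDH counts and MCM6 near 0, and RRM1 rose by 0.30, a direction that was lost relative to HPRT1 counts. The part of cell cycle in the values of DNMT1 and UHRF1 was not tested. Of 14 germline genes whose promoters are known to be silenced by methylation, 8 did not pass the filter, and of the other 6, 1 rose and 4 fell (median -1.04). Called genes made up 83.3% of those tested, against 55.8% of all tested genes. PIWIL2 went from 464, 410 and 444 counts to 47, 57 and 51 (log2 fold change -3.31, edgeR adjusted p = 9.06e-09), TDRD1 from 75, 55 and 48 counts to 9, 5 and 23 (edgeR adjusted p = 0.000192), MAEL fell by 1.06, and DAZL rose by 0.80 from 53, 69 and 45 counts to 122, 87 and 134 (edgeR adjusted p = 0.00471). Genes that pass the filter through 1 condition are bound to differ. TDRD1 and MAEL are among them, since they could pass only through their hESC libraries. The list counts therefore describe the 6 genes only.

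**Figure D4:**
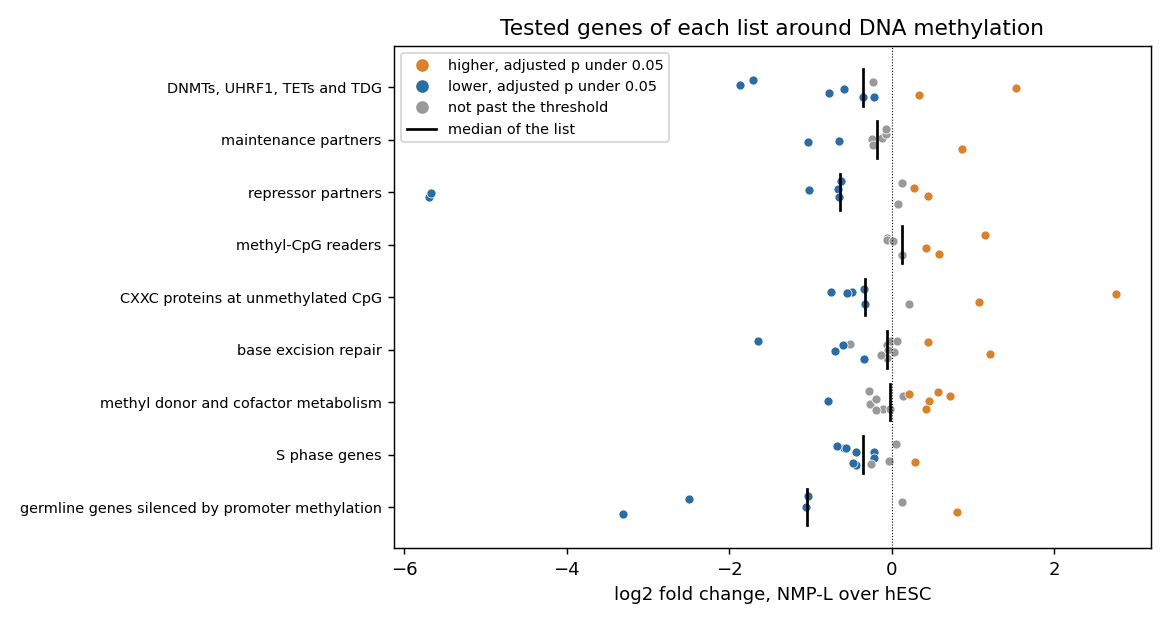
Log2 fold change, NMP-L over hESC, of each tested gene in the lists (1 point per gene; colour shows whether it passed adjusted p under 0.05 and in which direction, and the black bar is the median of the list). The medians run from -1.04 in the germline genes to 0.13 in the readers of methylated CpG; the points of ZFP57 and DPPA3 rest on libraries at or under 3 counts and are not sizes of change.

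For TET2 and DNMT3L, the genes with the largest called rise and fall by edgeR's estimate, the genes most alike over the 6 libraries were found by Pearson's r of log2 CPM. For TET2 they were GJB2 (r = 0.9991), RALGPS1 (0.999) and ROBO1 (0.9987), and 1114 tested genes had an r above 0.95. For DNMT3L they were CTHRC1 (0.999), GADD45B (0.9968) and TCEAL3 (0.9966), and 1587 genes exceeded 0.95. The value of GJB2 rests on low counts, since it was at 0.21, 0.05 and 0.16 CPM in hESC, near the floor of 3 counts. The choice of DNMT3L rests on low counts, since its interval includes the value of DNMT3B, and with log2(TPM + 0.1) DNMT3B fell by more (-1.61 against -1.52). The 6 points form one cluster per condition and share their libraries, so these values describe the common difference between the conditions.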

How the data were processed

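RNA-seq of polyadenylated RNA was compared between 3 hESC and 3 NMP-L libraries. The authors deposited expected counts and TPM per gene; the submitters' processing notes name cutadapt 1.9.1, STAR 2.5.2a, RSEM 1.3.0, DESeq2 1.12.3 and hg19, and the annotation is not given in the sources used here. The study's methods text does not describe this experiment. The deposited expected counts were rounded and tested with edgeR 4.0.16 in R 4.3.3 (quasi-likelihood F-test, TMM scaling, filterByExpr with a minimum count of 10) over 15517 genes, with Benjamini-Hochberg adjustment over all of them. The deposited TPM values, which are divided by effective length, gave levels, shares and ratios, tested by two-sided exact permutation over libraries. The p-values measure the spread between these libraries. A floor of 3 counts equals 0.130 to 0.154 CPM before TMM scaling and covers counting error only.

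The 9 genes and all lists were chosen with earlier results of these data known. Beside the 9 genes, up to 3 risen and 3 fallen genes of largest change per list are named, with the 3 genes most alike to the largest riser and faller, GAPDH and HPRT1; TRIM28, PCNA and markers outside this rule were added after their values were seen. Some genes that the rule names are not reported here. Promoter sequences are from RefSeq. Alternatives included other scalings, filters, tools (DESeq2 1.42.0, limma 3.58.1), thinning, a replicate block, left-out libraries and, added after seeing the data, a correction for GC content and length and levels without TMM factors.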

Additional observations from a re-analysis of the deposited data

How the results depend on the processing

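Over 19 alternatives, 148 of 170 values of the 9 genes had the direction and the call reported above, 16 lost their call, 3 gained one and 3 changed sign. The sign changes were all relative to GAPDH counts (DNMT1 0.35, UHRF1 0.20, TDG 0.34), where 5 of the 9 genes passed the threshold. DNMT3B ranged from -2.01 to -1.15 and TET2 from 0.99 to 2.09, and both were called under every alternative. With CPM in place of TPM, the DNMT1 share differed by 9.31 and the DNMT3B share by -4.90 percentage points. Leaving out 1 library gave 6 to 8 of the 9 genes, 39 to 47 list genes and 7255 to 8891 of all genes. With a replicate block, 7 of the 9 genes, 42 list genes and 7560 of all genes were called, and of the 9 genes only DNMT1 lost its call (adjusted p = 0.128). Same-numbered libraries did not deviate together (r = -0.367, -0.0575 and -0.134), and no hESC library correlated best with the NMP-L library of its own number. So few libraries cannot decide whether same-numbered ones share a culture. Low counts limit DNMT3L most.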
